A study of Arabidopsis thaliana with 4 samples.

Results

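The genes described here encode enzymes that act on pectin and are known from pollen of Arabidopsis thaliana: the polygalacturonase AT3G07820, the pectinesterase AT5G07430 and the pectate lyase AT3G01270, with the genes that lie beside the first pair in tandem. These 3 genes were chosen because their signals were near background on one array of the series and clear on both others, so their differences between those arrays are given as a description, with no test. The tandem neighbours AT3G07830, AT3G07840, AT3G07850, AT5G07410 and AT5G07420 were taken by position alone. Of these 8 loci, 5 had a probe set that the array annotation lists to 1 gene, among 13286 genes named in this way. The neighbours AT3G07850 and AT5G07410 have only probe sets listed to several genes, and no probe set is named for AT3G07830, so values are not given for these 3 loci.

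The study measured RNA of plants silenced for myosin XI-K, a motor protein that runs on actin filaments, by RNA interference (RNAi). The labels name 3 independent groups of plants transformed with an inverted repeat of the myosin XI-K coding sequence, and 1 control group that constitutively expresses the reporter gene GUS. Every sample was an equal mixture of rosette leaves, cauline leaves and flowers, hybridised to 1 one-colour Affymetrix array per group; plant age, accession and the promoter of the repeat are not stated in the labels. RNAi group 1 and the GUS control were deposited with identical values in all 22810 rows, whereas other pairs of arrays had equal values in 56 to 67 rows. They were counted as 1 sample, called the shared array, and which of these plant groups it measured cannot be told from the labels. RNAi groups 2 and 3 (n = 2 arrays) were set against it (n = 1), and no difference is assigned to silencing. No probe set is named for myosin XI-K itself, so its level was not used to check the labels. Values are probe set signals on a linear scale, and on each array 24.9% to 27.6% of them were under 32, a level used below as a floor for dim signals. The leaf genes RCA and LHCB4.1 were bright on every array (14452.3 to 22392.2), and the tapetum gene AT5G07230, a marker of young anthers, was at 616.3 in RNAi group 2, 1064.7 in RNAi group 3 and 974.3 on the shared array.

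Homogalacturonan, the main pectin of plant cell walls, is laid down with methyl esters. Pectinesterases (pectin methylesterases) remove these esters, after which calcium can link the chains or other enzymes can cut them: polygalacturonases by hydrolysis and pectate lyases by elimination. The tip of a growing pollen tube is largely pectin, and mature pollen carries transcripts of all 3 enzyme classes, along with inhibitor proteins that bind pectinesterases.

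The polygalacturonase AT3G07820, which belongs to the enzymes that hydrolyse the pectin backbone, had a signal of 709.5 in RNAi group 2 and 296.2 in RNAi group 3, against 3.0 on the shared array. The pectinesterase AT5G07430, of the class that strips methyl esters, had 496.8 in RNAi group 2 and 192.1 in RNAi group 3, against 1.9 on the shared array. The pectate lyase AT3G01270, of the class that cleaves de-esterified chains, had 616.4 in RNAi group 2 and 328.2 in RNAi group 3, against 31.6 on the shared array. For each of the 3 genes RNAi group 2 was highest, RNAi group 3 lay between and the shared array was lowest, all below 32. With 1 array per group no single step of this order has a replicate spread. Because the samples are tissue mixtures, fewer cells of a type and less RNA per cell cannot be told apart in these signals.

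The log2 difference of RNAi groups 2 and 3 from the shared array was 7.26 for AT3G07820 (SE 0.71), 7.35 for AT5G07430 (SE 0.80) and 3.83 for AT3G01270 (SE 0.58). The SDs between the RNAi arrays on the log2 scale were 0.89, 0.97 and 0.64 in the same order (n = 2). The size of the first 2 differences rests on signals of 3.0 and 1.9, far under the floor. With signals under 32 set to 32, the mean differences were 14.3-fold for AT3G07820, 9.65-fold for AT5G07430 and 14.1-fold for AT3G01270. On that scale AT3G07820 was 22.2-fold above the shared array in RNAi group 2 and 9.26-fold in RNAi group 3. AT5G07430 was 15.5-fold above it in RNAi group 2 and 6-fold in RNAi group 3, and AT3G01270 was 19.3-fold and 10.3-fold above it in those groups. Over all named genes 32.5% had a higher signal in both RNAi arrays than on the shared array, whatever the size, as did 4 of the 5 pectin genes, 3 of them by choice. The floor brought the 3 genes from a wide spread of log2 differences to values of 3.27 to 3.84. Over all named genes, 4 (0.0301%) were at least 8-fold higher in both RNAi arrays with this floor. Of these, 2 were AT3G07820 and AT3G01270, which the choice of the genes favours.

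**Figure D1:**
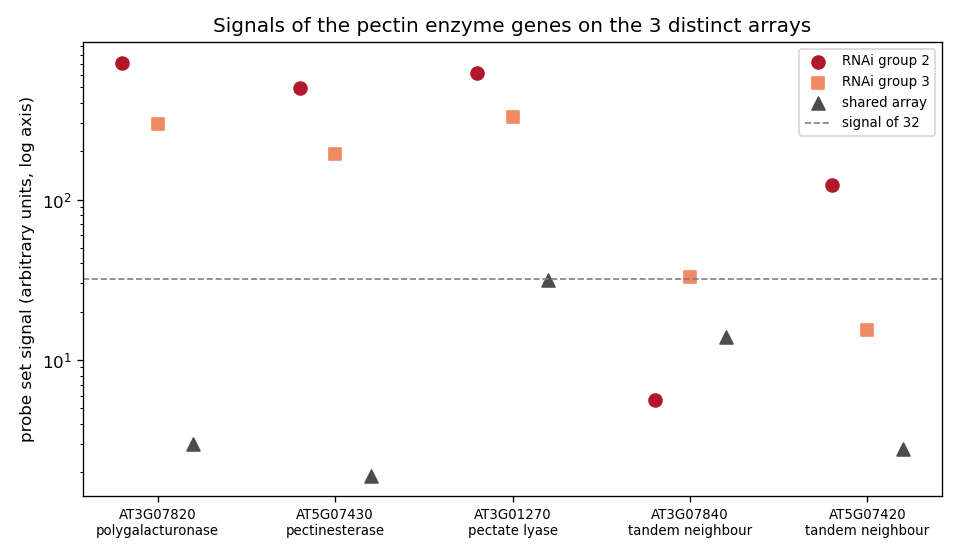
Signals of the 5 pectin enzyme genes with a probe set of their own, on a log axis; each point is 1 array (RNAi group 2, RNAi group 3, shared array) and the dashed line marks a signal of 32. The polygalacturonase, the pectinesterase and the pectate lyase lie at 192.1 to 709.5 on both RNAi arrays and at 1.9 to 31.6 on the shared array, whereas the neighbour AT3G07840 stays between 5.6 and 33.1.

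The RNAi arrays also differed from each other, in a direction that did not enter the choice of the genes. AT3G07820 was 2.4-fold higher in RNAi group 2 than in RNAi group 3, AT5G07430 was 2.59-fold higher and AT3G01270 was 1.88-fold higher. Each comparison sets 1 array against 1 array and has no replicate check. Among all named genes, 4947 (37.2%) were higher in RNAi group 2 than in RNAi group 3 with signals under 32 set to 32, and 4858 were lower. At least 1.5-fold higher were 14.1%, and the median fold was 1. The other 80 genes that were at least 2-fold higher in both RNAi arrays than on the shared array had a median fold of 1.23 between RNAi groups 2 and 3 (range 0.331 to 6.22). Of these 80, 59 (73.8%) were higher in RNAi group 2 than in RNAi group 3, and 35 (43.8%) were at least 1.5-fold higher. The 3 genes therefore sat on the side of RNAi group 2, within the range of other genes that were high in both arrays. The median of all log2 signals was itself 0.12 higher in RNAi group 2 than on the shared array and 0.03 higher in RNAi group 3.

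**Figure D2:**
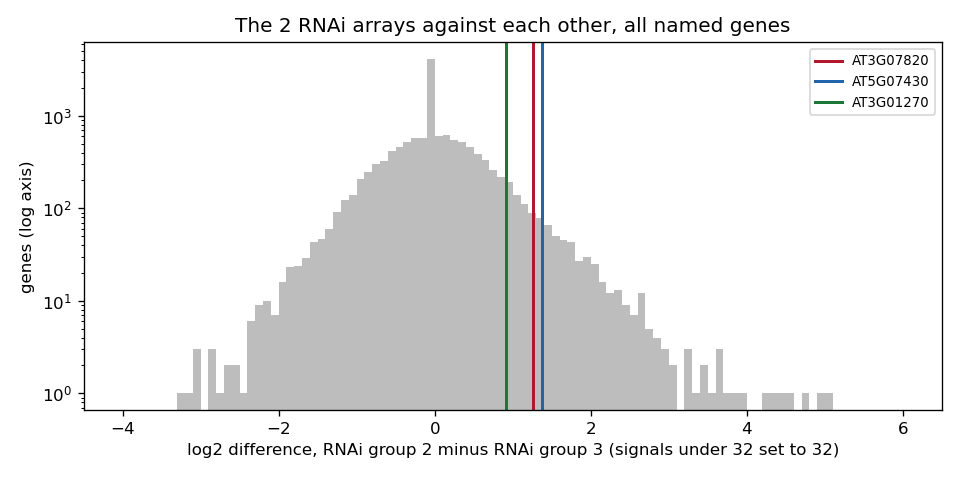
Histogram of the log2 difference of RNAi group 2 minus RNAi group 3 over the 13286 named genes (genes per bin, log axis), with signals under 32 set to 32; coloured lines mark AT3G07820, AT5G07430 and AT3G01270. The lines stand at 1.26, 1.37 and 0.91, to the right of the bulk of genes and inside the upper tail.

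The tandem neighbours did not share one pattern. In the RefSeq table the genes AT3G07820 to AT3G07850 follow each other on chromosome 3 with 0 protein-coding genes between neighbours, and AT5G07410 to AT5G07430 do so on chromosome 5. AT3G07840, which stands 1 gene away from AT3G07820 beyond AT3G07830, had 5.6 in RNAi group 2 and 33.1 in RNAi group 3, against 13.9 on the shared array. Its RNAi signals lay on both sides of the shared array and all were close to or under the floor, with a log2 difference of -0.03 (SE 1.41) and of 0.02 with signals under 32 set to 32. AT5G07420, directly beside the pectinesterase AT5G07430, had 122.4 in RNAi group 2 and 15.4 in RNAi group 3, against 2.8 on the shared array. It was thus clear in RNAi group 2 alone, 3.83-fold above the floor, and under 32 on the other arrays.

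Both neighbours were too dim for the filter on low signals, so their test came from limma on all 22746 probe sets. AT5G07420 had a log2 difference of 3.95 (SE 1.5), and neither neighbour passed (limma adjusted p = 1 for each). In that fit 0% of probe sets were called higher and 0% lower, with 420 higher and 98 lower at an unadjusted p under 0.05, AT5G07420 among the higher ones. With the filter, 5 of 15922 probe sets were called higher (0.0314%) and 0 lower. That fit held the 3 chosen genes too, so the 5 can include genes chosen on these same values. The 3 genes chosen on their values passed that filter through their RNAi signals and the neighbours did not, so the filter itself favours the pattern for which the 3 were chosen.

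The 3 chosen genes are left out of the counts that follow, since no test is given for them. Of the other genes in the 3 enzyme families, none passed the test. The lists held 146 further loci, of which 101 had a probe set listed to 1 gene, and 47 of these passed the filter. In limma 0 of the 47 were called higher and 0 lower, with 1 higher (AT5G48140) and 0 lower at an unadjusted p under 0.05, beside 147 higher and 48 lower of all 15922 probe sets. In the fit without the filter 0 of the 101 were called, with 6 higher and 1 lower at an unadjusted p under 0.05, beside the 420 and 98 of 22746. With signals under 32 set to 32, 1 of the 101 was at least 2-fold higher in both RNAi arrays (0.99%) and 0 were at least 2-fold lower, beside 0.625% higher and 0.256% lower among all named genes. The median log2 difference was 0.00 over the 101 genes and 0.00 over all named genes. Of the 101, 38 (37.6%) were under 32 on all 3 arrays, as were 24.9% of all named genes. The count depended on which RNAi array was used. With RNAi group 2 set against the shared array, whatever RNAi group 3 held, 11 of the 101 (10.9%) were at least 2-fold higher, beside 4.15% of all named genes. With RNAi group 3 the count was 5 (4.95%), beside 2.45%, and AT5G15110 is in both counts. At least 2-fold lower were 3 of the 101 in each RNAi array, beside 2.15% of all named genes in each. The count in both arrays also depended on the floor. With the signals as deposited, 13 (12.9%) were at least 2-fold higher in both RNAi arrays and 9 (8.91%) lower, beside 6.03% and 3.45% of all named genes. Both comparisons share the same lone array. Loci of these families that are in probe sets of several genes were not used here.

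Among the other polygalacturonases, 37 of 59 had a named probe set, 16 passed the filter and 0 were called. AT5G48140, a polygalacturonase gene, had 137.7 in RNAi group 2 and 52.6 in RNAi group 3, against 11.8 on the shared array. Both RNAi signals were above the shared one, by 2.85 on the log2 scale (SE 0.85; adjusted p = 1 in limma) and 2.66-fold with the floor. ADPG1, which acts in organ shedding and opening of anthers and fruits, had 159.9 in RNAi group 2 and 26.7 in RNAi group 3, against 13.8 on the shared array, so it was clear in RNAi group 2 alone. AT3G61490 had 438.2 in RNAi group 2 and 114.4 in RNAi group 3, against 130.2 on the shared array, again high in RNAi group 2 alone. AT1G10640 lay the other way, with 202.8 in RNAi group 2 and 413.5 in RNAi group 3, against 524.1 on the shared array. AT3G62110 and AT4G23820, both well above the floor on all arrays, were 1.75-fold and 1.67-fold higher on average, and each had a limma adjusted p of 1.

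Among the other pectinesterases, 42 of 62 had a named probe set, 16 passed the filter and 0 were called in limma, with 0 at an unadjusted p under 0.05. Without the filter 0 were called, with 4 higher and 1 lower at an unadjusted p under 0.05, AT3G17060 and AT3G05610 among the higher ones. AT3G17060 had 91.1 in RNAi group 2 and 33.9 in RNAi group 3, against 5.4 on the shared array. AT3G05610 had 71.2 in RNAi group 2 and 47.4 in RNAi group 3, against 7.1 on the shared array. Both genes kept the order of AT5G07430, at far dimmer signals, and with the floor their mean differences were 1.74-fold and 1.82-fold. Higher in both RNAi arrays than on the shared array were 32.5% of all named genes, whichever RNAi group was highest. AT5G49180 was clear in RNAi group 2 alone, with 156.8 there and 38.4 in RNAi group 3, against 29.1 on the shared array. AT2G47550 had 81.5 in RNAi group 2 and 43.3 in RNAi group 3, against 22.7 on the shared array. The brighter genes AT3G10720 and AT3G43270 were lower on both RNAi arrays: AT3G10720 had 696.1 in RNAi group 2 and 1299.7 in RNAi group 3, against 1862 on the shared array, and AT3G43270 had 768 and 472.9 there, against 1179.7. Each had a mean fold of 0.511 and a limma adjusted p of 1.

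Among the other pectate lyases, 22 of 25 had a named probe set, 15 passed the filter and 0 were called in limma, with 0 at an unadjusted p under 0.05. Without the filter 0 were called, with AT5G15110 alone at an unadjusted p under 0.05. AT5G15110 was the gene of the 101 that was at least 2-fold higher in both RNAi arrays, with 83.7 in RNAi group 2 and 79.9 in RNAi group 3, against 6.5 on the shared array. Unlike AT3G01270, its RNAi signals were nearly equal, 1.05-fold apart. AT59, a pectate lyase gene known from pollen, had 56.7 in RNAi group 2 and 19.9 in RNAi group 3, against 6.5 on the shared array, and was above the floor in RNAi group 2 alone. The lyase genes above the floor on every array did not share one order. AT1G67750 had 350.2 in RNAi group 2 and 746.3 in RNAi group 3, against 339.7 on the shared array, so it was high in RNAi group 3 alone. AT3G07010 was 1.67-fold higher on average, AT4G24780 1.41-fold and AT1G30350 1.39-fold, each with a limma adjusted p of 1. AT3G07010 had 432.5 in RNAi group 2 and 262.7 in RNAi group 3, against 202.3 on the shared array. AT1G30350 had 73 and 55.4 there, against 45.7, so both kept the order of AT3G01270. Of all named genes 32.5% were higher in both RNAi arrays than on the shared array, whichever RNAi group was highest. AT4G24780 was highest in RNAi group 3, at 1572.9.

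**Figure D3:**
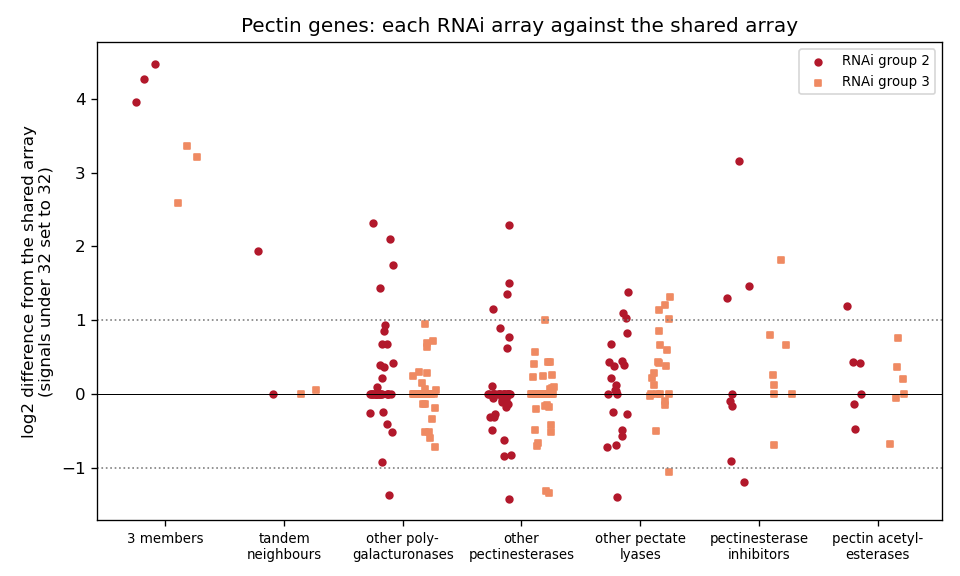
Log2 difference from the shared array, with signals under 32 set to 32, for each named gene of the pectin lists; circles are RNAi group 2 and squares RNAi group 3, and dotted lines mark 2-fold. The 3 chosen genes stand apart from their families on both arrays, which their choice favours, and 100 of the 101 other enzyme genes are not 2-fold in the same direction on both arrays.

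Among the genes listed as pectinesterase inhibitors, 8 of 13 had a named probe set, 7 passed the filter and 0 were called in limma. At an unadjusted p under 0.05, 2 were higher (AT1G10770 and APPB1), beside the 147 of 15922 probe sets, and AT1G10770 alone without the filter. AT1G10770, an inhibitor gene known from pollen, had 549.1 in RNAi group 2 and 217 in RNAi group 3, against 61.8 on the shared array. All 3 signals were above the floor and both RNAi arrays were higher, 8.89-fold in RNAi group 2 and 3.51-fold in RNAi group 3, with a log2 difference of 2.48 (limma adjusted p = 1). Its 2.53-fold step between RNAi groups 2 and 3 was close in size to that of the polygalacturonase and the pectinesterase. APPB1 had 79 in RNAi group 2 and 55.9 in RNAi group 3, against 18.1 on the shared array. AT1G62770 was above the floor in RNAi group 2 alone, at 87.9, with 27 in RNAi group 3 and 28.3 on the shared array. The bright inhibitor genes AT5G20740 and AT3G17130 had 578.8 and 723.5 in RNAi group 2, both the lowest of the 3 arrays, and AT3G47380 had a mean fold of 0.746.

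Of the pectin acetylesterases, which remove acetyl groups from pectin, 6 of 12 had a named probe set and 0 of the 5 past the filter were called in limma, with 0 at an unadjusted p under 0.05. AT1G57590 had 1284 in RNAi group 2 and 352.5 in RNAi group 3, against 563.2 on the shared array, on both sides of it. AT3G09410, AT3G05910, AT5G26670 and AT3G09405 had mean folds of 1.24, 1.14, 1.1 and 1.08, and AT1G09550 was under 32 on all arrays. For pectin synthesis, GAUT15 alone of 15 listed galacturonosyltransferase genes was named, with 350.7 in RNAi group 2 and 310.8 in RNAi group 3, against 494.4 on the shared array (limma adjusted p = 1).

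Markers of pollen had the order of the 3 genes in part. Of 25 listed pollen markers 6 had a named probe set, and their summed signal was 1121.8 in RNAi group 2 and 455.1 in RNAi group 3, against 68.3 on the shared array. Most of that sum was AT5G45880, a gene of the pollen Ole e family, with 949.6 in RNAi group 2 and 391.6 in RNAi group 3, against 11.3 on the shared array. It was called in limma (log2 difference 5.75, SE 0.65, adjusted p = 0.0478, higher in 2 of 2 RNAi arrays), a call already known when the list was drawn up. It passed the filter through its RNAi signals, and the call was lost with the floor and without the filter (limma adjusted p = 1). AT4G39110, the gene of a pollen tube receptor kinase, had 62.7 in RNAi group 2 and 21.7 in RNAi group 3, against 4 on the shared array. ACT12, a pollen actin, had 46.3 in RNAi group 2 and 11.8 in RNAi group 3, against 31 on the shared array. The receptor kinase genes ANX1, ANX2 and AT2G21480 were under 32 on all 3 arrays. The part of pollen content in the signals of the 3 genes was not tested.

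The summed signals of markers of other tissues in the mixture lay closer together than the pollen sum, most of which was 1 gene. With the floor, the median log2 difference of RNAi group 2 minus RNAi group 3 was 0.27 for pollen markers. It was -0.56 for tapetum markers and -0.29 for leaf markers. The floor limits the pollen median, because 3 of the 6 pollen markers were under 32 on all 3 arrays. As deposited, the folds of RNAi group 2 over RNAi group 3 were 1.49 to 5.14 for the 6 pollen markers. They were 0.579 and 0.798 for the tapetum genes, and 0.717 and 0.936 for the leaf genes. In RNAi group 3, 5 of the pollen markers were under 32, so most of their folds rest on dim signals. The tapetum list had 2 of 12 genes named, with a summed signal of 766.8 in RNAi group 2 and 1253.4 in RNAi group 3, against 1173.4 on the shared array. The leaf list had 2 of 12 named, with 35416.6 in RNAi group 2 and 42549.4 in RNAi group 3, against 41771 on the shared array. AMS, a regulator of tapetum development, had 150.5 in RNAi group 2 and 188.7 in RNAi group 3, against 199.1 on the shared array. RNAi group 2 had the lowest sums in both of these lists, each of 2 genes. Against the shared array LHCB4.1 was 0.719-fold in RNAi group 2 and RCA was 0.967-fold. In limma 0 of these 4 genes were called, with 0 at an unadjusted p under 0.05. No gene of the floral organ identity list was named, and it was not analysed here.

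The 5 named genes whose pattern lay nearest to the mean of the 3 pectin genes were AT3G28830, AT5G38760, AT5G45880, AT3G28750 and AT3G28790. Likeness was the distance over the log2 differences of RNAi groups 2 and 3 from the shared array, with signals under 32 set to 32; the mean of the 3 genes was 4.23 and 3.05, and the 5 distances ran from 0.56 to 0.98 among 13281 genes. Over 3 arrays such likeness describes little more than a low shared array and a higher RNAi group 2 than RNAi group 3. AT3G28830 had 409 in RNAi group 2 and 254 in RNAi group 3, against 25.7 on the shared array. AT5G38760, of the late embryogenesis abundant family, had 600.1 in RNAi group 2 and 240.8 in RNAi group 3, against 42.8 on the shared array. AT3G28750 had 933.7 in RNAi group 2 and 506.4 in RNAi group 3, against 35.2 on the shared array, and AT3G28790 had 468 and 331.3 there, against 48. AT3G28750, AT3G28790 and AT3G28830 lie near each other on chromosome 3, with 4 and then 2 protein-coding genes between them in the RefSeq table. Without the floor 1 of the 5 genes remained among the nearest.

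**Figure D4:**
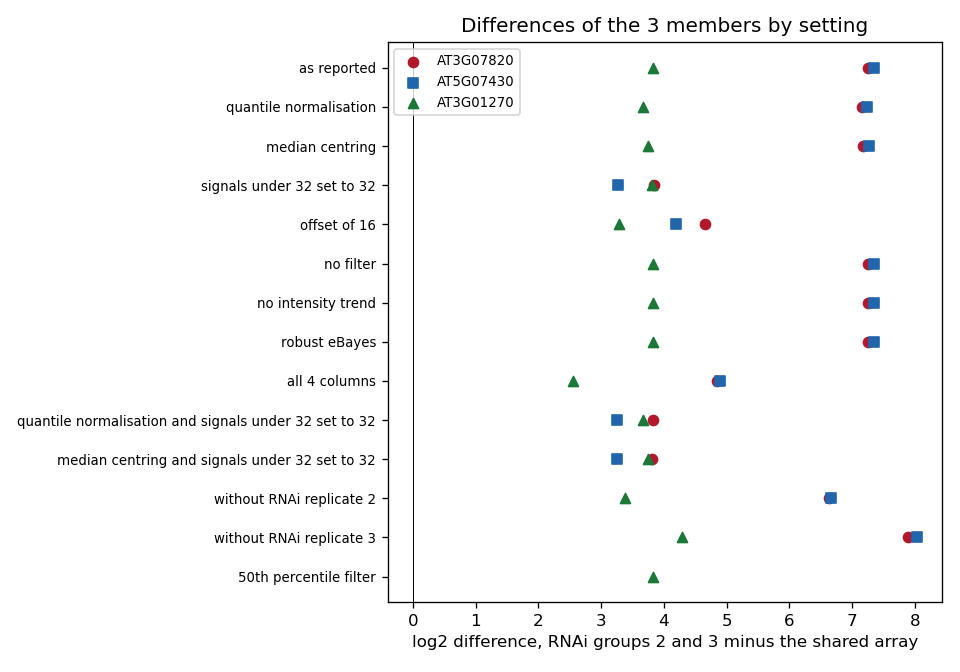
Log2 difference of RNAi groups 2 and 3 minus the shared array for AT3G07820, AT5G07430 and AT3G01270 under each setting; the 50th percentile filter removed the first 2 genes. All points are positive; the polygalacturonase and the pectinesterase move from 7.26 and 7.35 to 3.84 and 3.27 with signals under 32 set to 32, and the pectate lyase from 3.83 to 3.81.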

How the data were processed

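The authors deposited the linear intensity of each probe set, for which the submitters' processing notes name GCOS and MAS5 without versions. The trimmed mean of each column was 500.05 or 500.06, so the arrays were not scaled again. Detection calls were not used. Precision is limited by how few arrays there are. The 64 control probe sets were dropped. Gene names came from the platform annotation, updated by gene identifier through the RefSeq table of TAIR10.1, used for names and gene order only: 13513 probe sets list 1 gene, 13436 of them matched, and 503 list several and were not named. Enzyme classes come from general knowledge, since these tables give none; where a gene had several probe sets, the one with the highest mean signal was used.

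Signals were put on the log2 scale, and probe sets above the 30th percentile of the mean log2 signal (5.307) were kept, 15922 in all. RNAi groups 2 and 3 were compared with the shared array by limma 3.58.1 in R 4.3.3 (lmFit, eBayes with intensity trend, 2-sided, Benjamini-Hochberg over all probe sets, threshold 0.05), with 1 residual and 7.45 prior degrees of freedom. The shared array is assumed to vary like the RNAi arrays, and no p-value holds a spread of its own for that array. The spread behind each p-value comes from the 2 RNAi arrays and, for the larger part, from other probe sets of similar signal. Genes under the filter took SE and p from a fit without it. The procedure was also run on simulated data drawn with the same spread on every array, so that run could not check the assumption about the shared array. Members and gene lists were chosen with earlier results of these data known. Beside the chosen genes and their neighbours, the text names from each list those past the test and otherwise up to 6 with the largest absolute difference with the floor of 32, and the 5 genes nearest in pattern. Alternatives were quantile normalisation, median centring, the floor, an offset of 16, other filters and eBayes settings, all 4 columns, and leaving out an RNAi array.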

Additional observations from a re-analysis of the deposited data

How the results depend on the processing

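The 3 chosen genes were higher on the RNAi arrays in every setting run, and the sizes moved with the treatment of dim signals. The log2 differences of AT3G07820 and AT5G07430 were 3.84 and 3.27 with the floor of 32, 4.65 and 4.19 with an offset of 16, 3.83 and 3.26 with quantile normalisation and the floor, and 3.81 and 3.25 with median centring and the floor. With all 4 columns, where the shared array counts in both groups, AT3G07820, AT5G07430 and AT3G01270 had 4.84, 4.90 and 2.55, as that construction implies. Leaving out an RNAi array gave 6.63 to 7.89, 6.66 to 8.03 and 3.38 to 4.29, with no test because no residual degrees of freedom remain; leaving out RNAi group 1 changes nothing. The differences between RNAi groups 2 and 3 moved, in all 4 settings run, by less than each gene's SE in the fit against the shared array.

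The count of 5 higher probe sets became 13 without the intensity trend and 0 with quantile normalisation, the floor, the offset, no filter, robust eBayes, all 4 columns, and the floor after either scaling; the cause was not tested. The pollen marker call (1 gene, AT5G45880) became 0 in those same 8 settings. No other listed gene passed in any setting in which it was tested; the 2 tandem neighbours were tested only without the filter, where neither passed. Of the 101 other family genes, 1 was 2-fold higher and 0 lower in both RNAi arrays with the floor, against 13 (12.9%) and 9 (8.91%) without it, where all named genes gave 6.03% and 3.45%; leaving out an RNAi array gave 5 to 11 higher and 3 to 3 lower. The floor combined with a scaling, and all alternatives for the 2-fold counts, were added after the data were seen. No paired analysis was possible because the label of the GUS plants holds no replicate number. Signals under 32 on the shared array limit every fold of AT3G07820 and AT5G07430 against that array.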
